A study of Rattus norvegicus with 24 samples.

Results

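The 6 miRNAs described here are both arms of 3 hairpins, rno-miR-221, rno-miR-222 and rno-miR-139, out of 1098 miRNAs counted in rat brain. They were chosen by their measured levels in these same libraries, which earlier results had shown to be higher in the central amygdala (CEA) than in the paraventricular nucleus of the hypothalamus (PVN), so their difference between the nuclei is given as a description with no test. All 6 had counts in all 24 libraries, and none was lost to a filter. The tests concern what the choice did not use, namely the treatments, the difference in their effects between the nuclei, the ratio of the arms of each hairpin and the relation between members within a nucleus.

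Male Sprague-Dawley rats, 7 weeks old on purchase and given 1 week to adapt, fell into 4 treatments: normal control (NC), hepatectomy (HT), hepatectomy with electroacupuncture (HT+EA) and hepatectomy with sham electroacupuncture (HT+SEA). Surgery, given to all rats but NC, took out some 20% of the liver's left lobe, and EA was a 2 and 15 Hz current for 30 min through needles at the ST36 and SP6 points, given 24 h before surgery and again just after it. SEA rats had the same needles with no current, rats of all 4 treatments (NC included) were held in the restraint device, and the brain was sampled 24 h later than the final EA session. The PVN and the CEA gave 3 libraries for each treatment, 24 in all. Each nucleus was sampled as bulk tissue, so a lower level may be fewer cells that make the miRNA or less of it per cell, which cannot be told apart.

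A miRNA is cut from a hairpin as a duplex whose strands, the 5p and 3p arms, lie on either side of the loop, and usually the strand kept in the silencing complex is far more abundant. The kept strand pairs with target mRNAs mainly through its seed, bases 2 to 8 from the 5′ end, so miRNAs with the same seed share most of their targets. miR-221 and miR-222 come from neighbouring hairpins on the X chromosome and are best known for repressing the cell-cycle inhibitor p27Kip1 (Cdkn1b) and the receptor Kit. miR-139 lies inside Pde2a, the gene of a phosphodiesterase that degrades cyclic AMP and cyclic GMP and is abundant in limbic brain regions.

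The mature sequences are shown because the shared seed links miR-221 and miR-222. They are RefSeq's, on the GRCr8 assembly, written 5′ to 3′ with the seed in capitals, and all 6 members matched an entry by name.
rno-miR-221-3p: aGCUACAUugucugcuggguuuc
rno-miR-222-3p: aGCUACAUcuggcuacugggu
rno-miR-221-5p: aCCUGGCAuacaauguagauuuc
rno-miR-222-5p: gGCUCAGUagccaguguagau
rno-miR-139-5p: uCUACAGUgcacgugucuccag
rno-miR-139-3p: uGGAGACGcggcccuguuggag
The 3p arms of miR-221 and miR-222 are identical over their first 8 bases and at 11 of 21 positions in all. No other of the 724 mature rat miRNAs in the RefSeq table has that seed, and the seeds of the other 4 members are shared by none. The seed of miR-139-5p holds the 5-base run CUACA that also stands in the shared seed of the miR-221 and miR-222 3p arms, but begins it at base 2 of the miRNA where those arms begin it at base 3, so the seeds are not the same.

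All 3 hairpins are on the plus strand. Mir222 spans chrX:6022621-6022723 and Mir221 chrX:6023182-6023290, with 458 bases between them, and RefSeq places both inside the long non-coding RNA genes LOC120099382 and LOC120099384. Mir139 spans chr1:165290859-165290926 and lies inside the protein-coding gene Pde2a. The hairpins are shown with the arms in capitals, since the ratio of the arms is a result given below, and the loops between the arms are 17, 19 and 14 bases long.
Mir221: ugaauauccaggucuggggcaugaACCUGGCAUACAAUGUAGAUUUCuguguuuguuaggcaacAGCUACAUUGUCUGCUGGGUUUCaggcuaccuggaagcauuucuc
Mir222: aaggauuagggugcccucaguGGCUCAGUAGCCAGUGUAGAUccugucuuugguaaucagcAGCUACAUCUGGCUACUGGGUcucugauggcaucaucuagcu
Mir139: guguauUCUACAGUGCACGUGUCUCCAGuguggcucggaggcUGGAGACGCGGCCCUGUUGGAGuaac

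Levels are given as CPM, the count of a miRNA scaled by its library total, and library totals ran from 6584345 to 14913564 counts. In the PVN they were 6584345 to 10668808 in NC and 8789556 to 11050725 in HT. All PVN libraries of HT+EA (12134529 to 14828269) and HT+SEA (13059380 to 13897929) were deeper. Depth and needling therefore cannot be told apart in the PVN comparisons of EA or SEA with HT. No other miRNA had counts like those of a member, since the closest one differed by at least 47.9% in some library. One CEA library stood apart, HT replicate 1, whose normalization factor of 0.822 was the lowest of the 24 (the PVN libraries lay between 0.983 and 1.06). Its correlation with its own group, 0.988, was also the lowest, but was close to that of CEA NC replicate 1 (0.989). The values of CEA HT replicate 1 touch every CEA comparison with HT, and the members' values without it are given beside these comparisons. The 7 neuronal marker miRNAs, among them miR-124-3p and miR-9a-5p, summed to 105656 to 119837 CPM in the PVN and 140014 to 164922 CPM in the CEA.

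miR-139-5p was the most abundant member in both nuclei. Its mean level was 2252 ± 395 CPM in the PVN and 10568 ± 3430 CPM in the CEA (SD, n = 12 libraries each), 0.225% and 1.06% of all counts, which placed it at ranks 55 and 22 of the 1098 miRNAs. Its 12 PVN libraries lay between 1866 and 3293 CPM and its 12 CEA libraries between 6540 and 19983 CPM, with no overlap. The opposite arm, miR-139-3p, was at 33.5 ± 4.72 CPM in the PVN and 121 ± 19.4 CPM in the CEA, again with no overlap, from 23.2 to 40.1 CPM and from 91.2 to 162 CPM.

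For miR-221 and miR-222 the 3p arms carried most of the counts. miR-221-3p was at 350 ± 45.5 CPM in the PVN and 1254 ± 129 CPM in the CEA, and miR-222-3p at 333 ± 49.2 CPM and 757 ± 79.8 CPM (SD, n = 12 each). The 2 miRNAs were thus at like levels in the PVN, with ranges of 281 to 415 CPM and 233 to 434 CPM, whereas in the CEA the lowest miR-221-3p library (973 CPM) was above the highest miR-222-3p library (873 CPM). Sequences of unlike composition can be captured unequally in small RNA libraries, so a level is compared between miRNAs as counted, not as molecules. miR-221-5p was at 118 ± 15.4 CPM in the PVN and 238 ± 31.7 CPM in the CEA. miR-222-5p was the rarest member by far, at 1.61 ± 0.451 CPM (11 to 25 counts per library) and 3.97 ± 0.918 CPM (30 to 74 counts), so its values carry the largest counting error.

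**Figure D1:**
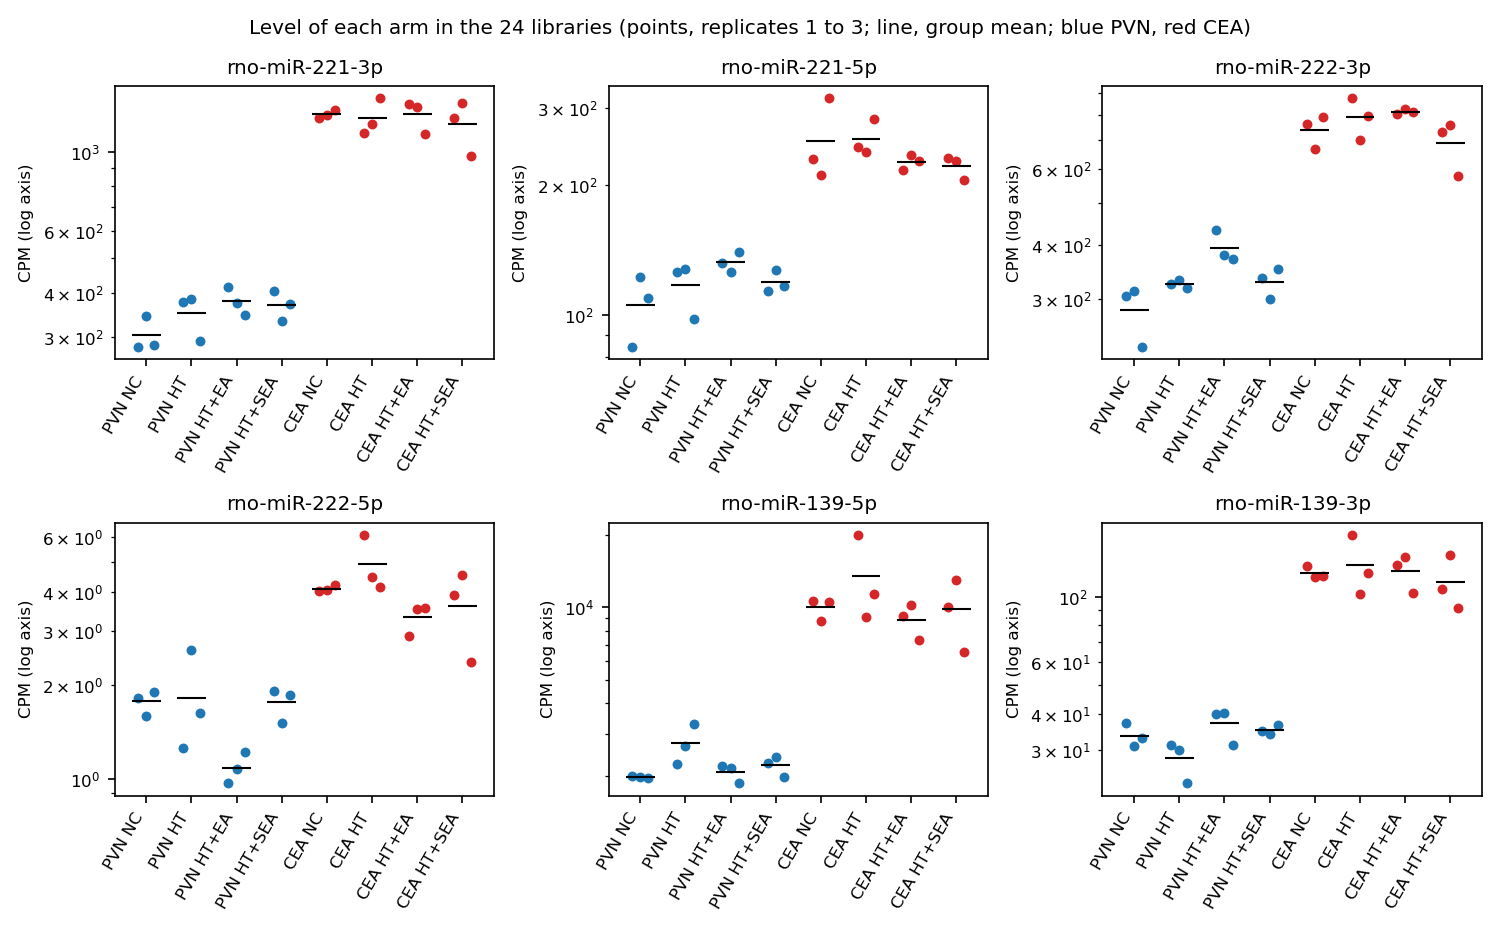
Level of the 6 arms in each of the 24 libraries, in CPM on a log axis, with a panel for each miRNA, a column for each nucleus and treatment, points for the 3 replicates and a line for the group mean. The CEA groups (red) lie above the PVN groups (blue) in all 6 panels, and CEA HT replicate 1 is the highest miR-139-5p point at 19983 CPM.

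Ordered by mean level, the 4 CEA groups came above the 4 PVN groups for all 6 members, and no member's CEA and PVN libraries overlapped within any treatment. Only miR-222-5p overlapped across treatments, its lowest CEA library (2.37 CPM, HT+SEA) being below its highest PVN library (2.59 CPM, HT). Within a nucleus most neighbouring groups in that order overlapped. The exceptions were miR-222-3p in the PVN, where HT+EA lay apart from HT+SEA and HT from NC, and miR-222-5p in the PVN, where HT+SEA lay apart from HT+EA.

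In a fit of all 24 libraries that also held a term for treatment, the CEA level exceeded the PVN level by 2.28 (log2) for miR-139-5p, 1.90 for miR-139-3p, 1.89 for miR-221-3p, 1.36 for miR-222-5p, 1.24 for miR-222-3p and 1.05 for miR-221-5p, beside a median of -0.03 over all 1098 miRNAs. Both miR-139 arms and miR-221-3p held ranks 1 to 3 among the 366 miRNAs with a mean of at least 10 CPM. The members were chosen for this contrast, in which 39.9% of all miRNAs had a Benjamini-Hochberg adjusted p under 0.05, so nothing is read from it. Leaving out any single library moved these differences little, to between 2.20 and 2.37 for miR-139-5p and between 1.88 and 1.98 for miR-221-3p.

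The size of the difference between the nuclei varied by treatment. For miR-221-3p the ratio of mean levels, CEA over PVN, was 4.22 in NC, 3.57 in HT, 3.39 in HT+EA and 3.25 in HT+SEA. miR-221-5p had ratios of 2.39, 2.18, 1.71 and 1.85, and miR-222-3p of 2.61, 2.42, 2.06 and 2.09, in the same order of treatments. For miR-139-5p the ratios were 5.04, 4.95, 4.28 and 4.46. On the CPM scale these 4 arms were widest apart in the unoperated rats. The interaction tests below, which use normalization factors, did not keep that order for HT against NC. The difference there, CEA minus PVN, was -0.07 for miR-221-3p but 0.04 for miR-221-5p, 0.09 for miR-222-3p and 0.22 for miR-139-5p, and none was called. For miR-139-3p the ratios were 3.58, 4.55, 3.29 and 3.19, with HT the widest, and for miR-222-5p they were 2.30, 2.69, 3.06 and 2.04, with HT+EA the widest.

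**Figure D2:**
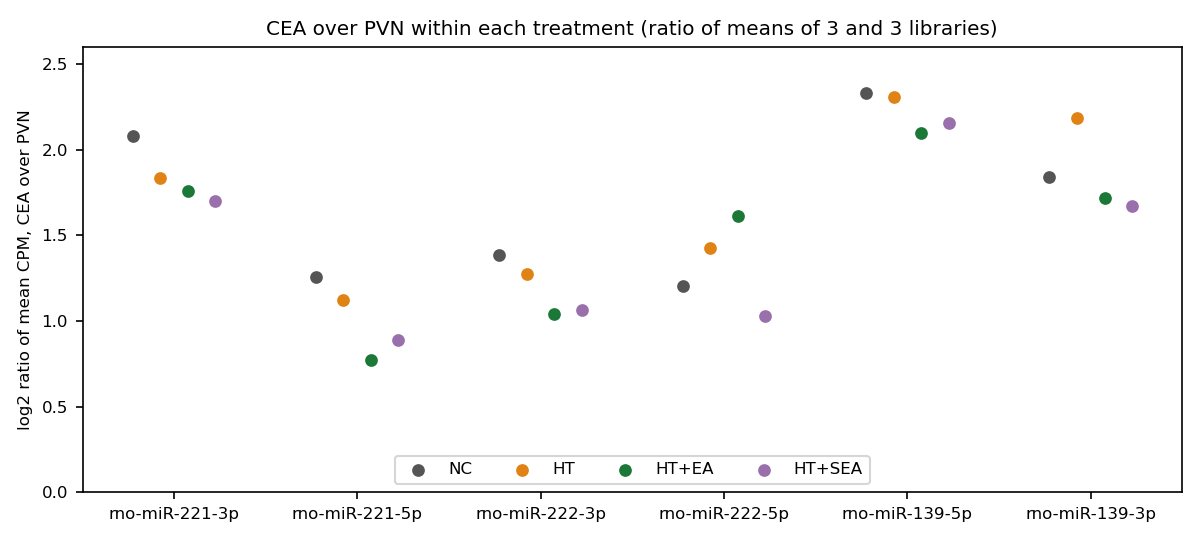
Ratio of the mean CPM in the CEA to that in the PVN within each treatment, on a log2 axis, for the 6 arms, with each mean over 3 libraries and no error drawn. All points lie above 0, and the NC points of the miR-221 arms, miR-222-3p and miR-139-5p are the highest of their 4.

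Whether the members responded to surgery and needling was tested in 8 comparisons, 4 in each nucleus, with edgeR's quasi-likelihood test over all miRNAs with a count. A miRNA is called at an unadjusted p under 0.05, the threshold the study used, and the Benjamini-Hochberg adjusted p over all tested miRNAs stands beside it. Of the 48 tests on the 6 members, 10 were called, where the share of all miRNAs called ran from 2.24% to 11.4% by comparison. No member passed 0.05 after adjustment in the fits reported. Some alternatives brought miR-139-5p under it, as given beside each comparison. That mark was passed by 3.25% of all miRNAs in PVN HT vs NC, 1.02% in PVN HT+EA vs HT, 0.2% in PVN HT+SEA vs HT and 2.72% in PVN HT+EA vs HT+SEA, and by 0.201%, 0.0996%, 0.4% and 0% in the CEA in the same order. These shares moved with the setting, as in PVN HT vs NC, where 32 miRNAs passed as reported and 1 to 42 over the alternatives. miR-139-5p accounted for 6 of the 10 calls, all in comparisons that share the HT libraries of their nucleus. miR-222-3p accounted for 2, and miR-222-5p and miR-139-3p for 1 each. Neither miR-221 arm was called in any comparison as reported. Among the alternatives, miR-221-5p was called in CEA HT+EA vs HT with low counts filtered (-0.34) and without HT replicate 2 (-0.45). miR-221-3p was called in PVN HT vs NC without HT replicate 3 (0.29). The labels do not say that the replicates are separate rats, and the methods describe 12 rats split over the 4 treatments, with brain samples of a common batch but not of a common animal, and tie no library to a rat, so the test measures the spread between these libraries.

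In the PVN miR-139-5p rose after surgery. Its level was 2000, 1990 and 1964 CPM in the 3 NC libraries and 2239, 2656 and 3293 CPM in the 3 HT libraries. The NC libraries were nearly equal, and all HT libraries were above them. The change was 0.42 ± 0.134 (log2, SE, n = 3 and 3, edgeR quasi-likelihood test, Benjamini-Hochberg adjusted p = 0.0542), and it was called without any of the 6 libraries, at 0.27 to 0.51. Over the alternatives the edgeR or DESeq2 adjusted p ran from 0.0244 (without HT replicate 1) to 0.391, and it was 0.0301 with all 4 PVN groups in the fit. It was the only member called of 6, where 10.9% of all miRNAs were called. The opposite arm miR-139-3p was not called, at 37.1, 30.9 and 33.0 CPM in NC and 31.3, 30.1 and 23.2 CPM in HT, a difference of -0.28 ± 0.213. miR-222-3p was higher in all 3 HT libraries (326, 333 and 319 CPM) than in the NC libraries (304, 313 and 233 CPM) but was not called (0.17 ± 0.163, edgeR adjusted p = 0.817). miR-139-5p and miR-222-3p were the 2 members whose groups did not overlap, beside 12.8% of all miRNAs.

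In the CEA, miR-139-5p was 10664, 8816 and 10540 CPM in NC and 19983, 9161 and 11357 CPM in HT. The groups overlapped, and 1 library set the difference, HT replicate 1, against a mean of 10259 CPM in the other HT libraries. With it, the change was 0.56 ± 0.174 (edgeR quasi-likelihood test, Benjamini-Hochberg adjusted p = 0.190). Without it the difference was 0.01 and was not called, whereas without HT replicate 2 it was 0.87, and over all alternatives the edgeR or DESeq2 adjusted p ran from 0.0012 to 1.0. The call also ended with DESeq2 (0.58), with low counts filtered by filterByExpr (0.55) and with a robust estimate of the spread (0.56), where the difference stayed about as large. Without HT replicate 1 the 6 members ran from -0.14 to 0.05, with miR-222-3p and miR-139-3p below 0. No other member was called in this comparison, in which 3.82% of all miRNAs were called, and none had groups that did not overlap, beside 5.62% of all miRNAs.

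Among the members, EA against HT gave the most calls in the PVN, 3 of 6, where 11.4% of all miRNAs were called. miR-139-5p fell from 2239, 2656 and 3293 CPM in HT to 2204, 2169 and 1866 CPM in HT+EA, with no overlap. The change was -0.35 ± 0.114 (n = 3 and 3, edgeR quasi-likelihood test, Benjamini-Hochberg adjusted p = 0.149) and was called without any of the 6 libraries. Over the alternatives the edgeR or DESeq2 adjusted p ran from 0.0138 (without HT replicate 1) to 0.422. miR-139-3p moved the other way, from 31.3, 30.1 and 23.2 CPM to 40.0, 40.1 and 31.4 CPM. All HT+EA libraries were above all HT libraries, the margin between the nearest being under 0.1 CPM, and the change was 0.42 ± 0.176 (edgeR adjusted p = 0.309). It was lost without HT replicate 3 (0.27) and, at nearer to the same size, without HT+EA replicate 1 (0.37) or 2 (0.35), with DESeq2 (0.39) and with filterByExpr (0.39).

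miR-222-3p rose in the same comparison, from 326, 333 and 319 CPM in HT to 434, 379 and 371 CPM in HT+EA. The groups did not overlap, and the change was 0.31 ± 0.121 (edgeR quasi-likelihood test, Benjamini-Hochberg adjusted p = 0.246). It was lost without HT+EA replicate 1, the highest library, at 0.23. The other arm of that hairpin, miR-222-5p, was lower in all 3 HT+EA libraries (0.966, 1.07 and 1.21 CPM) than in the HT libraries (1.25, 2.59 and 1.63 CPM), on 11 to 24 counts, and was not called (-0.70 ± 0.391, edgeR adjusted p = 0.514). In all, 4 of the 6 members had groups that did not overlap, beside 15.7% of all miRNAs. Both comparisons with HT use the same HT libraries, so a rise after surgery and a fall after EA are not independent of each other.

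Against SEA in place of HT, which sets the current apart from the needles, miR-222-3p was the only member called in the PVN, where 7.14% of all miRNAs were called. Its HT+EA libraries (434, 379 and 371 CPM) were above its HT+SEA libraries (336, 300 and 352 CPM), and the change was 0.25 ± 0.0948 (edgeR quasi-likelihood test, Benjamini-Hochberg adjusted p = 0.196). It was lost without HT+EA replicate 1 (0.19), without HT+SEA replicate 2 (0.21) and when all 4 PVN groups were fitted together (0.24). miR-222-5p again lay the other way with no overlap (0.966 to 1.21 CPM against 1.51 to 1.91 CPM) and was not called (-0.70 ± 0.370, edgeR adjusted p = 0.707). miR-139-5p, at 2204, 2169 and 1866 CPM with EA and 2265, 2398 and 1979 CPM with SEA, overlapped and was not called (-0.10 ± 0.0892). Groups that did not overlap, as for both miR-222 arms, were found for 11.3% of all miRNAs.

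SEA against HT called miR-139-5p alone in the PVN, where 8.3% of all miRNAs were called. Its HT+SEA libraries, at 2265, 2398 and 1979 CPM, overlapped the HT libraries, and the change was -0.28 ± 0.119 (edgeR quasi-likelihood test, Benjamini-Hochberg adjusted p = 0.521). It was lost without HT replicate 3, where it was -0.17, without HT+SEA replicate 3 (-0.20), and, at nearly the same size, without HT+SEA replicate 1 (-0.31) and with DESeq2 (-0.29). miR-139-3p was above HT in all 3 HT+SEA libraries (34.8, 34.2 and 36.6 CPM) and was not called (0.33 ± 0.169, edgeR adjusted p = 0.602). A call was gained with a robust spread (0.33), a replicate block (0.34), all 4 PVN groups together (0.36) and without HT replicate 1 (0.44). It was the only member without overlap, beside 10.3% of all miRNAs.

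In the CEA, EA against HT called miR-139-5p and miR-222-5p, 2 of 6 members, where 5.28% of all miRNAs were called. miR-139-5p was 9208, 10198 and 7297 CPM in HT+EA, overlapping the HT libraries (19983, 9161 and 11357 CPM), and its change was -0.80 ± 0.213 (edgeR quasi-likelihood test, Benjamini-Hochberg adjusted p = 0.178). Without HT replicate 1 the change was -0.26 and the call was lost. The call was also lost at a size no smaller than reported without HT+EA replicate 2 (-0.92) and with a robust estimate of the spread (-0.80). The edgeR or DESeq2 adjusted p ran from 8.38e-07 (without HT replicate 2) to 0.972 over the alternatives, and it was also under 0.05 without HT replicate 3 (0.000109), without HT+EA replicate 1 (0.0336) and with the replicate block (0.0307). miR-222-5p was 6.10, 4.46 and 4.14 CPM in HT and 2.89, 3.51 and 3.55 CPM in HT+EA with no overlap, on 42 to 74 counts. Its change was -0.73 ± 0.330 (edgeR adjusted p = 0.897), and it was lost without HT replicate 1 (-0.42), HT+EA replicate 1 (-0.66) or HT+EA replicate 2 (-0.78).

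miR-221-5p also had HT+EA libraries (216, 234 and 227 CPM) below all its HT libraries (244, 237 and 284 CPM) in the CEA and was not called (-0.32 ± 0.171, edgeR adjusted p = 0.897, and -0.26 without HT replicate 1). With miR-222-5p it made 2 members without overlap, beside 9.36% of all miRNAs. SEA against HT in the CEA called miR-139-5p alone, at -0.60 ± 0.222 (edgeR quasi-likelihood test, Benjamini-Hochberg adjusted p = 0.529), where 4.7% of all miRNAs were called. Its HT+SEA libraries were 10054, 12995 and 6540 CPM, and without HT replicate 1 the difference was -0.06 and was not called. The edgeR or DESeq2 adjusted p ran from 0.00193 (without HT replicate 2) to 1.0 over the alternatives, and it was 0.0276 without HT+SEA replicate 2. The call was also lost without HT+SEA replicate 3 (-0.40) and, at about the same size, without HT+SEA replicate 1 (-0.63), with DESeq2 (-0.65), with filterByExpr (-0.63) and with a robust estimate of the spread (-0.60). miR-221-5p was the only member without overlap (205 to 230 CPM against 237 to 284 CPM), beside 6.41% of all miRNAs, and was not called (-0.32, and -0.25 without HT replicate 1). EA against SEA in the CEA called none of the 6, beside 2.24% of all miRNAs, and its differences ran from -0.18 to 0.21. miR-222-3p was the only member without overlap (802 to 824 CPM against 577 to 759 CPM), beside 4.78% of all miRNAs.

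**Figure D3:**
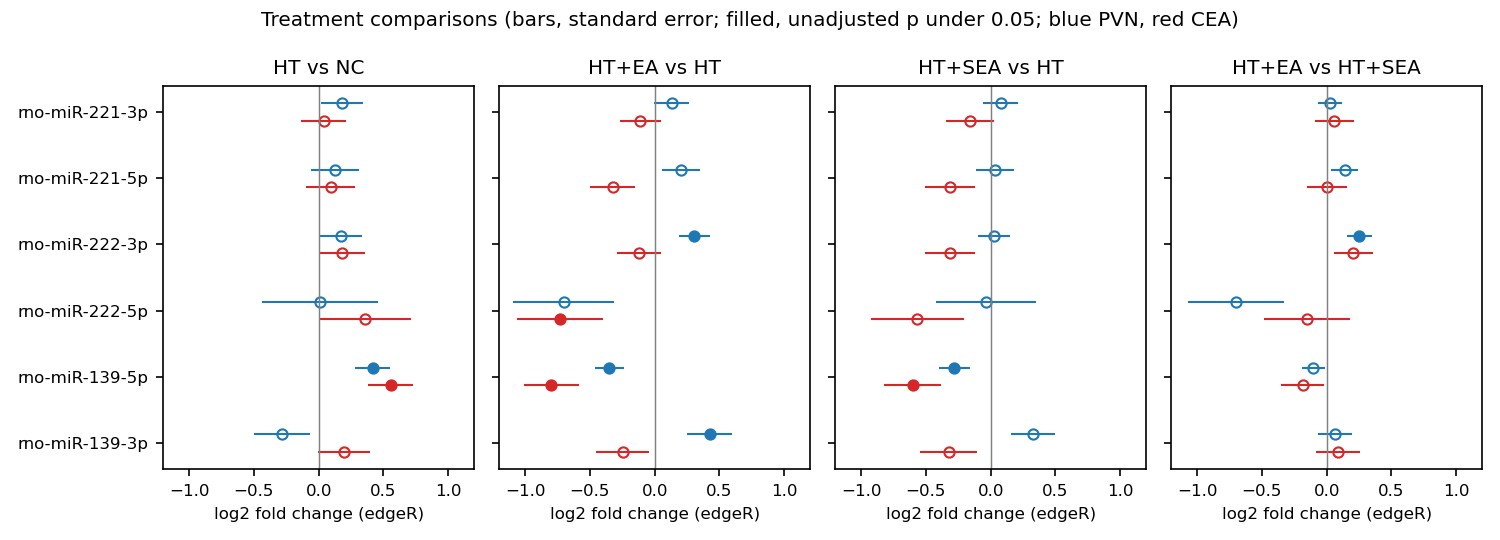
Log2 fold change of the 6 arms (rows) in the 4 treatment comparisons (panels), with bars for the standard error, blue for the PVN, red for the CEA and filled points for an unadjusted p under 0.05. miR-139-5p is filled in both nuclei in the 3 comparisons with HT, and without CEA HT replicate 1 its red HT vs NC point would be at 0.01.

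Seen across the 6 members, the median difference after surgery was 0.15 in the PVN and 0.19 in the CEA, beside -0.01 and -0.02 over all miRNAs. For EA against HT it was 0.17 in the PVN and -0.28 in the CEA, beside 0.02 and 0.01. For SEA against HT it was 0.03 and -0.32, beside 0.02 in both. In the TMM-scaled fit all 6 members were below HT in the CEA with both EA and SEA, by log2 differences of -0.11 to -0.80 and of -0.16 to -0.60, although only miR-139-5p was called in both. On the CPM scale 2 of them turn with EA, since the HT+EA mean was above the HT mean for miR-221-3p (1280 and 1253 CPM) and miR-222-3p (813 and 789 CPM). CEA HT replicate 1, with its TMM factor of 0.822, belongs to the HT group of both. Without it 4 of 6 members were below HT with EA, where miR-222-3p (0.07) and miR-139-3p (0.08) were above, and 5 of 6 with SEA, where miR-139-3p was at 0.01. The CEA medians were then 0.01 after surgery, -0.17 with EA and -0.13 with SEA.

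Whether a treatment acted differently in the CEA and the PVN was tested as an interaction over 12 libraries, 24 tests on the members in all. For EA against HT, 2 of 6 members were called, beside 1.9% of all miRNAs, and both were minor arms. The major arm miR-222-3p was not called (CEA minus PVN, -0.38 ± 0.216) but was called in 6 of 12 fits that left out a library. miR-139-3p changed by 0.42 in the PVN and -0.25 in the CEA, a difference of -0.63 ± 0.299 (CEA minus PVN, edgeR quasi-likelihood test, Benjamini-Hochberg adjusted p = 1.0), and miR-221-5p by 0.20 and -0.32, a difference of -0.48 ± 0.222 (edgeR adjusted p = 1.0). For SEA against HT, miR-139-3p was the member called, beside 2.66% of all miRNAs, at -0.69 ± 0.314 (edgeR adjusted p = 1.0). Both miR-139-3p calls were lost with DESeq2 (-0.68 for EA and -0.70 for SEA) and filterByExpr (-0.63 and -0.69), at about the same size, and without CEA HT replicate 1 (-0.28 and -0.32). The miR-221-5p call was lost with the replicate block (-0.47) and without CEA HT replicate 1 (-0.39). No member was called for HT against NC or for EA against SEA, beside 4.98% and 2.27% of all miRNAs.

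Despite its larger fold changes in the CEA, miR-139-5p was not shown to respond differently in the 2 nuclei. Its interaction was 0.22 ± 0.241 for HT against NC, -0.41 ± 0.320 for EA against HT and -0.37 ± 0.337 for SEA against HT (edgeR quasi-likelihood test, Benjamini-Hochberg adjusted p = 1.0 for each). Without CEA HT replicate 1 the first of these turned to -0.43, which was called, and the others to 0.16 and 0.22, which were not. The narrowing of the miR-221-3p ratio after surgery did not pass the test (-0.07 ± 0.243, edgeR adjusted p = 1.0).

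The ratio of the 2 arms of a hairpin comes from counts of the same library and needs no normalization. For miR-139 the 5p arm was 54.0, 64.3 and 59.5 times as abundant as the 3p arm in the PVN NC libraries, 71.6, 88.3 and 142 times in HT, 55.1, 54.0 and 59.5 times in HT+EA and 65.2, 70.2 and 54.1 times in HT+SEA. In the CEA it was 83.7, 75.9 and 89.7 times in NC, 123, 89.6 and 94.7 times in HT, 72.2, 75.1 and 71.1 times in HT+EA and 94.4, 93.7 and 71.7 times in HT+SEA. All HT libraries were above all HT+EA libraries in both nuclei, and above all NC libraries in the PVN. In the CEA, HT replicate 2 (89.6) lay just below NC replicate 3 (89.7).

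Over both nuclei, with 0.5 added to each count, the miR-139 ratio was 0.50 higher (log2) in HT than in NC, in 6 of 6 HT libraries against the NC mean of their nucleus (exact permutation test within nuclei, two-sided, p = 0.01 over 400 arrangements). It was 0.63 lower in HT+EA than in HT, in 6 of 6 libraries (exact permutation test, two-sided, p = 0.005, the smallest these arrangements can give). Adjusted by Benjamini-Hochberg over all 156 hairpins with both arms counted, the exact permutation p was 0.39 and 0.0975, so neither passed. In these tests 4.49% of hairpins were called for HT against NC and 18.6% for EA against HT. Both held at an unadjusted p under 0.05 without any of the 12 libraries. The 400 arrangements shuffled the PVN and CEA libraries independently of each other. Same-numbered PVN and CEA libraries deviated together in NC (r of 0.171 to 0.312) and HT+EA (0.105 to 0.265), though not in HT. If such libraries share a rat, fewer arrangements are free and the smallest p they can give is larger. No library is tied to a rat, so this was not tested.

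The miR-222 ratio also differed with EA. The 3p arm was 260, 129 and 196 times as abundant as the 5p arm in the PVN HT libraries and 449, 353 and 306 times in HT+EA, and in the CEA it was 143, 157 and 192 times in HT and 278, 235 and 229 times in HT+EA. Each HT+EA library was above each HT library of its nucleus. The difference over both nuclei was 0.78 (log2, 6 of 6 libraries, exact permutation test, two-sided, p = 0.005, Benjamini-Hochberg adjusted p = 0.0975 over all 156 hairpins), again against a background of 18.6%. It rests on 11 to 74 counts of the 5p arm, and its test too shuffled the nuclei independently. For HT against NC it was 0.05 (exact permutation test, p = 0.8).

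The miR-221 ratio differed between the nuclei and was not shown to move with treatment. The 3p arm was 2.96 times as abundant as the 5p arm in the PVN (2.46 to 3.55 over 12 libraries) and 5.27 times in the CEA (4.16 to 6.33), with no overlap, which uses the contrast that chose the members and is given with no test. The HT against NC difference was -0.01 and the EA against HT difference 0.07 (log2, exact permutation tests, two-sided, p = 0.875 and 0.425, adjusted p = 0.941 and 0.684 over all hairpins). For miR-222 the nuclei overlapped, with a ratio, 0.5 added to each count, of 206 in the PVN (118 to 433) and 192 in the CEA (142 to 274).

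**Figure D4:**
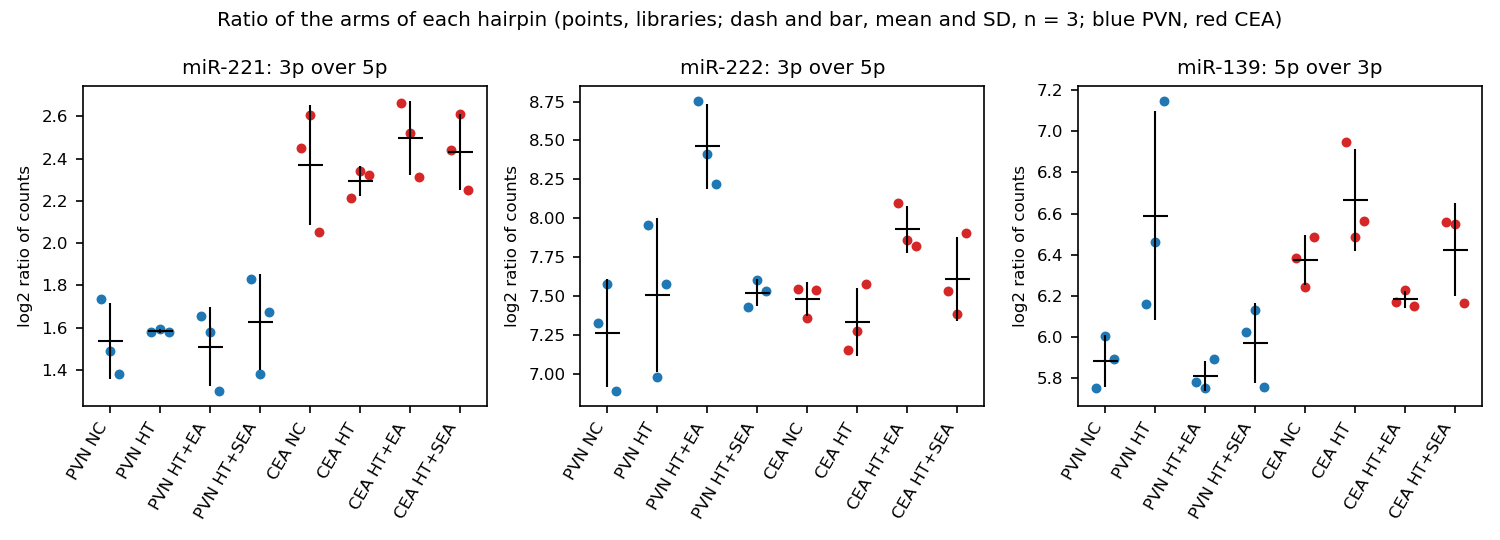
Log2 ratio of the counts of the major to the minor arm (0.5 added to each) in the 24 libraries, with a panel per hairpin, points for libraries, and a dash and bar for the mean and SD of each group (n = 3). The HT points of miR-139 lie above the HT+EA points in both nuclei, the HT+EA points of miR-222 above the HT points, and the miR-221 points separate by nucleus only.

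Within a nucleus, members were compared over its 12 libraries, with log2 CPM scaled by the normalization factors and labels permuted within treatments, in 10 tests. In the CEA the miR-139 arms moved together, with Pearson's r = 0.93 (exact permutation test, p = 0.000772, the smallest these arrangements can give, Benjamini-Hochberg adjusted p = 0.00772) and Spearman's rho = 0.77 (p = 0.00617, adjusted p = 0.0617). Without the 2 libraries farthest from the median r was 0.66 (exact permutation p = 0.0208). In the PVN the arms of miR-139 gave r = -0.64 and rho = -0.30 (exact permutation p = 0.241 and 0.688), and r turned to 0.25 without 2 libraries.

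miR-221-3p and miR-222-3p, which share the seed, gave r = 0.71 and rho = 0.74 in the PVN (exact permutation p = 0.0185 and 0.0170, Benjamini-Hochberg adjusted p = 0.0720 for both), and r = 0.81 without 2 libraries. In the CEA the pair gave r = 0.65 and rho = 0.51 (exact permutation p = 0.0841 for both, adjusted p = 0.140 and 0.210), and r = 0.38 without 2 libraries (exact permutation p = 0.639). miR-221-3p and miR-139-5p gave r = 0.67 and rho = 0.77 in the CEA (exact permutation p = 0.0432 and 0.0216, adjusted p = 0.105 and 0.0720), which was 0.33 when library totals were used for scaling. In the PVN the same miRNAs gave r = -0.12 and rho = 0.14 (exact permutation p = 0.680 and 0.562). The arms of miR-222 in the CEA gave r = 0.72 (exact permutation p = 0.0216, adjusted p = 0.0720) but rho = 0.23, and without 2 libraries r was -0.36, so the relation rests on those libraries. In the PVN these arms gave r = -0.67 and rho = -0.64 (exact permutation p = 0.210 and 0.441).

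The miRNAs whose pattern over the 24 libraries was most like a member's were sought among the 366 with a mean of at least 10 CPM, which leaves out miR-222-5p. Such correlations share the nucleus difference and are a description. miR-383-5p was closest to miR-221-3p (r = 0.980) and to miR-139-3p (r = 0.980), and miR-138-1-3p, the minor arm of a brain miRNA hairpin, was closest to miR-139-5p (r = 0.967). Members were often each other's neighbours: miR-221-3p was the closest to miR-221-5p (r = 0.960) and to miR-222-3p (r = 0.974).

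After the mean of each nucleus and treatment was taken out, the order changed. miR-139-5p was then most like miR-132-3p (r = 0.843), miR-212-3p (r = 0.825) and miR-431 (r = 0.825), over the same 24 libraries and with shared depth. miR-132 and miR-212 come from a common transcript known to be induced by neuronal activity through CREB, and miR-431 from the imprinted Dlk1-Dio3 cluster. Without CEA HT replicate 1 the 3 values were 0.830, 0.843 and 0.844. miR-221-3p was most like miR-337-5p (r = 0.812), miR-409a-5p (r = 0.809) and miR-494-3p (r = 0.799), and miR-139-3p like miR-337-5p (r = 0.733), miR-383-5p (r = 0.725) and miR-381-3p (r = 0.711). The nearest to miR-222-3p were miR-412-5p (r = 0.605), miR-337-5p (r = 0.582) and miR-409b (r = 0.564), and to miR-221-5p they were miR-128-3p (r = 0.593), miR-361-3p (r = 0.530) and miR-384-5p (r = 0.499).

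The group means that this removes are given here for the 3 miRNAs nearest to miR-139-5p, with CEA HT replicate 1 included. In the CEA after surgery, miR-132-3p was called at 0.39 ± 0.176 (edgeR quasi-likelihood test, Benjamini-Hochberg adjusted p = 0.988), while miR-212-3p (0.37 ± 0.190) and miR-431 (0.29 ± 0.200) were not. With EA against HT in the CEA, miR-132-3p (-0.39 ± 0.191) and miR-431 (-0.40 ± 0.195) were called and miR-212-3p (-0.40 ± 0.212) was not, all with an edgeR adjusted p = 0.897. With SEA against HT, miR-132-3p (-0.57 ± 0.208) and miR-212-3p (-0.59 ± 0.221) were called, both with an edgeR adjusted p = 0.529, and miR-431 (-0.35 ± 0.216) was not. Without CEA HT replicate 1, a setting chosen after seeing the data, none of these calls remained. The differences were then 0.05, -0.06 and -0.23 for miR-132-3p, 0.06, -0.10 and -0.29 for miR-212-3p and 0.05, -0.17 and -0.11 for miR-431 in the same order of comparisons. None of the 3 was called in a PVN comparison, where miR-139-5p was called in all 3 comparisons with HT.

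Markers of other cells that the dissections could hold were counted beside these results, and none of the listed markers was at 0 in any library. Lists of miRNAs of ciliated cells (5 miRNAs of the miR-34 and miR-449 family), vessels (7), myeloid cells (6), oligodendrocytes (4), neurons (7), red cells (4) and muscle (4) had a summed level in the PVN of 2371 to 4101, 30445 to 36157, 4485 to 6657, 1973 to 3641, 105656 to 119837, 228 to 336 and 20.3 to 111 CPM. In the CEA the sums were 196 to 1173, 38237 to 43992, 7746 to 13719, 4333 to 8775, 140014 to 164922, 94.5 to 332 and 22.1 to 53.1 CPM. Oligodendrocyte sums did not overlap between the nuclei and were higher in the CEA, as were those of the vascular, myeloid and neuronal lists, whereas the ciliated sums were lower. These differences run alongside the members' nucleus contrast, and their part in it was not tested.

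With the treatments, the ciliated list had after surgery 2 of 5 markers called lower in the PVN, where its sum was 3251 to 4101 CPM in NC and 2371 to 2675 CPM in HT, and 3 of 5 lower in the CEA. In the same PVN comparison the muscle sum was 44.8 to 111 CPM in NC and 20.9 to 31.3 CPM in HT, with 2 of 4 markers called lower, and the red cell sum was 269.7 to 336 CPM in NC and 228 to 244 CPM in HT, with 1 of 4 lower, neither list overlapping. In CEA HT vs NC, 2 of 4 red cell markers and 1 each of the myeloid, oligodendrocyte and muscle lists were also called lower. In PVN HT+EA vs HT the oligodendrocyte list had 1 of 4 markers called higher and 2 lower. In CEA HT replicate 1 the ciliated sum was 196 CPM, against 1000 and 239 CPM in the other HT libraries. The red cell sum there was 94.5 CPM, against 208 and 185 CPM. For EA against HT no ciliated marker was called in either nucleus, and for SEA against HT 2 were higher in the PVN and 4 in the CEA. The neuronal list had 2 higher and 1 lower after surgery in the PVN and 1 higher in the CEA, and 2 of 7 lower with EA and 2 lower with SEA against HT in each nucleus, miR-132-3p among them in the CEA. For EA against SEA in the PVN, where miR-222-3p was called, 1 marker each of the neuronal, ciliated, oligodendrocyte, red cell and myeloid lists was lower. There 1 each of the vascular, myeloid and muscle lists was higher. In the CEA 2 red cell markers and 1 each of the ciliated, myeloid, oligodendrocyte and muscle lists were lower, and none was higher. Over all 8 comparisons the calls were 3 higher and 10 lower of 56 for the neuronal list, 6 and 7 of 40 for the ciliated, 2 higher and 1 lower of 56 for the vascular list, 5 and 4 of 48 for the myeloid, 2 and 7 of 32 for the oligodendrocyte, 3 and 8 of 32 for the red cell and 3 and 5 of 32 for the muscle list. The part of any of these cells in the changes of miR-139-5p and miR-222-3p was not tested.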

How the data were processed

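The authors deposited raw counts per miRNA for 24 libraries made with a NEBNext small RNA kit. The labels name HISAT2, featureCounts and GRCh38, and the series text speaks of mice. The study's methods name HISAT2, featureCounts and the rat genome mRatBN7.2, and give no separate account of the counting of miRNAs. A further 24 columns, on a per-million scale, were not used. The members and lists were chosen with earlier results of these data known. Groups follow the labels, which give nucleus, treatment and replicate number. Each comparison was fitted on its 6 libraries by glmQLFit after TMM scaling (R 4.3.3, edgeR 4.0.16, limma 3.58.1), over miRNAs with at least 1 count, which was checked on simulated counts. The standard error is the log2 fold change over the square root of F. Interactions used 12 libraries. Arm ratios had 0.5 added to each count and were tested by exact permutation within nuclei, with the nuclei shuffled independently. Their p-values were first adjusted over the 6 arm tests and then, after these values were seen, over all 156 hairpins whose arms both average at least 10 counts, which is what is printed. Correlations used exact permutation within treatments. Python 3.11.15, numpy 2.4.6, pandas 2.3.3, scipy 1.17.1 and matplotlib 3.10.9 made the tables and figures.

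Named miRNAs are the 6 members and, for each member of at least 10 CPM, the 3 most correlated before and after removing group means. Marker lists are named only as lists, besides miR-124-3p and miR-9a-5p, chosen as examples. Alternatives were DESeq2 1.42.0, RLE size factors, filterByExpr, a robust spread, all 4 groups of a nucleus, a replicate block and leaving out each library. Correlations, and the fits of the 3 miRNAs most like miR-139-5p, without CEA HT replicate 1 were chosen after seeing the data. Same-numbered libraries deviated together (r over 0.1 for every number) in CEA HT and NC, at 0.227 to 0.420, so the numbers pair those groups by this check, although the labels do not say what a number marks. The other 7 comparisons did not meet it. Across the nuclei it was met in NC, HT+EA and HT+SEA and not in HT. The block changed no member's call in CEA HT vs NC.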

Additional observations from a re-analysis of the deposited data

Results flagged for a closer look

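The differences between the nuclei given here passed an unadjusted interaction test across the 2 nuclei. The effect of EA against HT on miR-221-5p was lower in the CEA than in the PVN by a log2 difference of -0.48, held at an unadjusted p under 0.05 in 9 of 12 fits that left out a library, and was lost without PVN HT replicate 3, CEA HT replicate 1 or CEA HT+EA replicate 2. It was also lost with the replicate number as a block, at -0.47, and same-numbered PVN and CEA libraries deviated together in HT+EA (r of 0.105 to 0.265) though not in HT. The effect of EA against HT on miR-139-3p differed by -0.63 and held in 6 of 12 such fits and in 2 of 4 other settings, being lost with DESeq2 (-0.68) and filterByExpr (-0.63). Without CEA HT replicate 1 it was -0.28. The effect of SEA against HT on miR-139-3p differed by -0.69 and held in 7 of 12 and in 2 of 4 other settings, being lost with the same ones (-0.70 and -0.69). Without CEA HT replicate 1 it was -0.32. Over all alternatives the Benjamini-Hochberg adjusted p of the edgeR interaction ran from 0.535 to 1, from 0.385 to 1 and from 0.360 to 1. The SEA and EA tests of miR-139-3p share their HT libraries.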

How the results depend on the processing

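Counts of called miRNAs moved by over 1.5 times in these fits. With DESeq2 and filterByExpr they were 51 and 47 for PVN HT+SEA vs HT (83 as reported), 7 and 7 for CEA HT vs NC (38), 26 and 22 for CEA HT+EA vs HT (53), 21 and 11 for CEA HT+SEA vs HT (47), 8 and 9 for CEA HT+EA vs HT+SEA (23), and 13 and 12, 6 and 5, 11 and 7, and 14 and 13 for the nucleus differences in HT vs NC (53), HT+EA vs HT (20), HT+SEA vs HT (28) and HT+EA vs HT+SEA (24). filterByExpr gave 65 for PVN HT vs NC (107). For PVN HT+EA vs HT+SEA (71) DESeq2 gave 47 and the fit of all 4 groups 45. The filter tests fewer miRNAs, and the cause of the other shifts was not tested. Leaving out each library gave 25 to 94 for PVN HT+SEA vs HT, 18 to 66 for CEA HT vs NC, 25 to 70 for CEA HT+EA vs HT, 17 to 58 for CEA HT+SEA vs HT, 15 to 37 for CEA HT+EA vs HT+SEA, and 34 to 74, 14 to 50, 20 to 55 and 19 to 40 for the nucleus differences.

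miRNAs with an adjusted p under 0.05 by edgeR or DESeq2 numbered 1 to 42 over the alternatives for PVN HT vs NC (32 as reported), 4 to 51 for PVN HT+EA vs HT (10), 0 to 31 for PVN HT+SEA vs HT (2), 0 to 27 for PVN HT+EA vs HT+SEA (27), and 0 to 9 (2), 0 to 21 (1), 0 to 17 (4) and 0 to 5 (0) in the CEA in the same order.

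These values of members changed sign. In other fits miR-222-5p turned to -0.012 (replicate block) and -0.0092 (all 4 groups together) in PVN HT vs NC, miR-222-3p to -0.0050 in PVN HT+SEA vs HT (filterByExpr), and in the nucleus differences miR-221-5p to -0.000107 (HT vs NC, filterByExpr), miR-222-5p to -0.028 and -0.031 (HT+EA vs HT, DESeq2 and RLE), miR-222-3p to 0.0063 (HT+EA vs HT+SEA, replicate block) and miR-139-3p to -0.0047 (HT+EA vs HT+SEA, filterByExpr). Leaving out a library gave these ranges, in which miR-139-5p turned from 0.22, -0.41 and -0.37 in the nucleus differences with HT. In the PVN they were -0.040 to 0.25 (miR-221-5p) and -0.36 to 0.18 (miR-222-5p) for HT vs NC, -0.017 to 0.23 (miR-221-3p) for HT+EA vs HT, -0.075 to 0.16, -0.12 to 0.12, -0.033 to 0.053 and -0.21 to 0.26 (miR-221-3p, miR-221-5p, miR-222-3p, miR-222-5p) for HT+SEA vs HT, and -0.038 to 0.10 (miR-221-3p) for HT+EA vs HT+SEA. In the CEA they were -0.0018 to 0.35, -0.012 to 0.36 and -0.14 to 0.43 (miR-221-5p, miR-222-3p, miR-139-3p) for HT vs NC, -0.28 to 0.069 and -0.46 to 0.084 (miR-222-3p, miR-139-3p) for HT+EA vs HT, -0.53 to 0.0066 (miR-139-3p) for HT+SEA vs HT, and -0.075 to 0.20, -0.051 to 0.050, -0.38 to 0.068, -0.41 to 0.093 and -0.044 to 0.30 (miR-221-3p, miR-221-5p, miR-222-5p, miR-139-5p, miR-139-3p) for HT+EA vs HT+SEA. In the nucleus differences they were -0.14 to 0.21, -0.20 to 0.17 and -0.43 to 0.43 (miR-221-5p, miR-222-3p, miR-139-5p) for HT vs NC, -0.43 to 0.35 and -0.77 to 0.16 (miR-222-5p, miR-139-5p) for HT+EA vs HT, -0.62 to 0.22 (miR-139-5p) for HT+SEA vs HT, and -0.062 to 0.21, -0.12 to 0.090, -0.27 to 0.23 and -0.089 to 0.26 (miR-221-3p, miR-222-3p, miR-139-5p, miR-139-3p) for HT+EA vs HT+SEA. The arm ratio of miR-221 for HT vs NC ran from -0.094 to 0.044 and that of miR-222 from -0.066 to 0.18. Correlations that changed sign without 2 libraries were the PVN miR-139 arms (0.25), PVN miR-221-3p with miR-139-5p (0.39) and the CEA miR-222 arms (-0.36). Others kept their sign, and their call changed for the CEA miR-221 arms with library totals (0.41) and for CEA miR-221-3p with miR-139-5p without 2 libraries and with library totals (0.65 and 0.33). Without 2 libraries the PVN miR-221 arms fell to 0.24, CEA miR-221-3p with miR-222-3p to 0.38 and the CEA miR-221 arms to 0.26.

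With the replicate block, called miRNAs numbered 31 in CEA HT+SEA vs HT, and other counts stayed within 1.5 times. With it miR-221-5p lost its call in the nucleus difference in HT+EA vs HT (-0.47), and miR-139-3p gained one in PVN HT+SEA vs HT (0.34). miR-139-5p in CEA HT+EA vs HT had an adjusted p of 0.0307 with the block, in a range of 8.38e-07 to 0.972 over its edgeR and DESeq2 alternatives. All 6 libraries of CEA HT vs NC correlated best with their own number, and in the other 7 comparisons 0 to 4 of 6 did, as a hint from the data only. Of the members' values within a nucleus by other tools and settings, 269 kept direction and side of the threshold, 11 lost a call, 5 gained one and 3 changed sign. Limits: with 3 libraries a group, miR-222-5p rests on 11 to 74 counts and the CEA calls of miR-139-5p on HT replicate 1.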
